A study of Mus musculus with 8 samples.

Results

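The DEAD-box and DEAH-box helicases are enzymes that use ATP to unwind RNA or to strip proteins from it, and they are named after a motif of amino acids, written DEAD or DEAH in single letters, at the site that binds and splits ATP. Different members act at nearly every step in the life of an RNA, from transcription and splicing through export and ribosome assembly to translation and decay. In intestinal epithelial cells (IECs) the family was of interest because DDX5, its most abundant member there, was deleted in the mice studied. The family was taken as every protein-coding gene listed for both tissues under a symbol that starts with Ddx or Dhx and a number. The 4 symbols Ddx58, Ddx60, Dhx58 and Ddx3y were left out by that rule. This gave 49 genes, 34 with a Ddx and 15 with a Dhx symbol, among 28349 genes listed for the colon and 38649 listed for the ileum, of which 26820 were listed for both.

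RNAseq was performed on IECs that had been detached with EDTA, from the colon and the ileum of 4 mice aged 8 weeks, which the study describes as pairs of cohoused littermates. The WT mice were DDX5(+/+), Vil1Cre(+) and the DDX5KO mice were DDX5(fl/fl), Vil1Cre(+), so that both genotypes carried the Cre recombinase under the Villin1 promoter, which is active in the gut epithelium and not in the immune or stromal cells of the wall. There were 2 WT and 2 DDX5KO libraries of each tissue. Each mouse gave a colon library and an ileum library, which carry its genotype and an equal replicate number. The genotypes and tissues were compared to see how the other helicases stood when DDX5 was deleted and whether the family differed along the gut.

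The 8 libraries held 11571061 to 22984283 counts on genes, of which the 49 members took 0.275 to 0.387%. By their sums, the labelled tissues held their markers. The 4 ileum enterocyte markers summed to 3587 to 6516 CPM (counts relative to the TMM-scaled library total) in the ileum and to 12.6 to 69.6 in the colon. Of these, Lct was at only 0.137 to 7.63 CPM over the 8 libraries. The 4 colonocyte markers summed to 3227 to 4459 CPM in the colon and 558 to 677 in the ileum. Among them Car1, Aqp8 and Slc26a3 were higher in WT colon. Car4 went the other way, at 245 and 237 CPM in WT colon and 472 and 542 in WT ileum. The 5 T cell markers summed to 24.1 to 29.7 CPM in WT colon and to 6.07 to 13.9 in DDX5KO colon, and to 55.7 to 72.5 CPM in WT ileum and 48.0 to 52.9 in DDX5KO ileum. Most of these sums was the leukocyte gene Ptprc, at 22.2 and 19.9 CPM in WT colon, 5.41 and 10.9 in DDX5KO colon, 46.2 and 67.8 in WT ileum and 42.0 and 42.2 in DDX5KO ileum. Of the other 4, Cd8a was at 4.20 and 1.85, 0.276 and 0.912, 4.80 and 2.29, and 6.75 and 2.36 CPM in the same order, and Cd2 was at 0 in 1 DDX5KO library of each tissue. The 8 crypt proliferation markers summed to 712 to 783 and 560 to 776 CPM in WT and DDX5KO colon, and to 936 to 964 and 733 to 951 CPM in the ileum. The part of these cells in the differences between genotypes was not tested, and in bulk RNA fewer cells of a type and less RNA per cell cannot be told apart. In DDX5KO ileum replicate 2, 19.5% of all counts fell on 3 repeat-like genes (Gm21738, Gm10801 and Gm10800), with at most 4.04% elsewhere.

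The motif that names the family could be read from the coding sequences of GENCODE vM21 on GRCm38 (mm10). In-frame codons for DEAD were present in 27 of the 34 Ddx genes and codons for DEAH in 8 of the 15 Dhx genes, whereas 0.754% and 0.347% of the 21614 protein-coding genes read held them on the coding strand. The 7 Ddx genes without DEAD codons were Ddx11, Ddx21, Ddx28, Ddx39, Ddx39b, Ddx50 and Ddx52, of which Ddx11 held DEAH codons. The 72 coding bases around the motif are printed here for the deleted gene, for its closest relative, for the 2 splicing helicases described with the genotype results and for a DEAH member that differed between tissues, with the codons of the motif in capitals.
Ddx5: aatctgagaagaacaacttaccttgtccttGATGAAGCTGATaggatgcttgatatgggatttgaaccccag
Ddx17: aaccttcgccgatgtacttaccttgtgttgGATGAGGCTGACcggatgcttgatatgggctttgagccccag
Ddx46: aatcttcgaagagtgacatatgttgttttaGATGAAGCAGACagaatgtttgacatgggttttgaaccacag
Ddx42: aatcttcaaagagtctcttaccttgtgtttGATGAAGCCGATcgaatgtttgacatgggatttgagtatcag
Dhx38: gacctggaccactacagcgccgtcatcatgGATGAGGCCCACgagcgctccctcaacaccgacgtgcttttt

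The Ddx5 window lies at chr11:106785163-106785234 on the minus strand, the Ddx17 window at chr15:79538845-79538916 on the minus strand, the Ddx46 window at chr13:55660728-55660799 on the plus strand, the Ddx42 window at chr11:106238544-106239143 on the plus strand across an intron, and the Dhx38 window at chr8:109556035-109556106 on the minus strand, all in coding exons. Of the 72 bases, Ddx17 shared 56 with Ddx5 at the same place, Ddx46 and Ddx42 shared 54 each, and Dhx38 shared 22. Over 1803 aligned coding bases, Ddx5 and Ddx17 were 69.8% identical. The longest stretch that any Ddx5 transcript shared with any Ddx17 transcript was 21 bases, and none of the 50-base words of Ddx5 occurred in Ddx17.

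In the WT epithelium, Ddx5 stood above every other member in both tissues. Levels were compared between genes as CPM per kb of exon length, with all 8 libraries scaled together by TMM. Ddx5, a coregulator of transcription and splicing, was at 128 ± 7.96 CPM per kb in WT colon and 121 ± 0.0144 in WT ileum (SD, n = 2). Ddx3x, which helps ribosomes start on structured mRNAs, followed with 74.7 ± 4.58 and 99.4 ± 3.67 CPM per kb. Ddx17, the relative of Ddx5 with which it shares many targets and partners, was the third in both, with 36.4 ± 1.81 and 34.6 ± 3.16 CPM per kb. These 3 levels did not overlap between mice in either tissue.

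Below them came helicases of mRNA export and turnover. Ddx39b, which loads export factors onto spliced mRNA, was at 27.3 ± 0.704 CPM per kb in WT colon and 22.5 ± 2.03 in WT ileum, and the little-studied Dhx32 was at 27.1 ± 1.69 and 21.0 ± 0.805. Ddx6, which acts in mRNA repression and decapping, was at 22.1 ± 2.09 CPM per kb in the colon and 29.5 ± 1.95 in the ileum. In the colon the 2 mice overlapped between Ddx39b and Dhx32, and in the ileum between Ddx39b and Dhx9. Along the whole order, 25 of 48 neighbouring pairs overlapped for the colon and 29 of 48 for the ileum, so the order of those neighbours was not resolved with 2 mice.

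**Figure D1:**
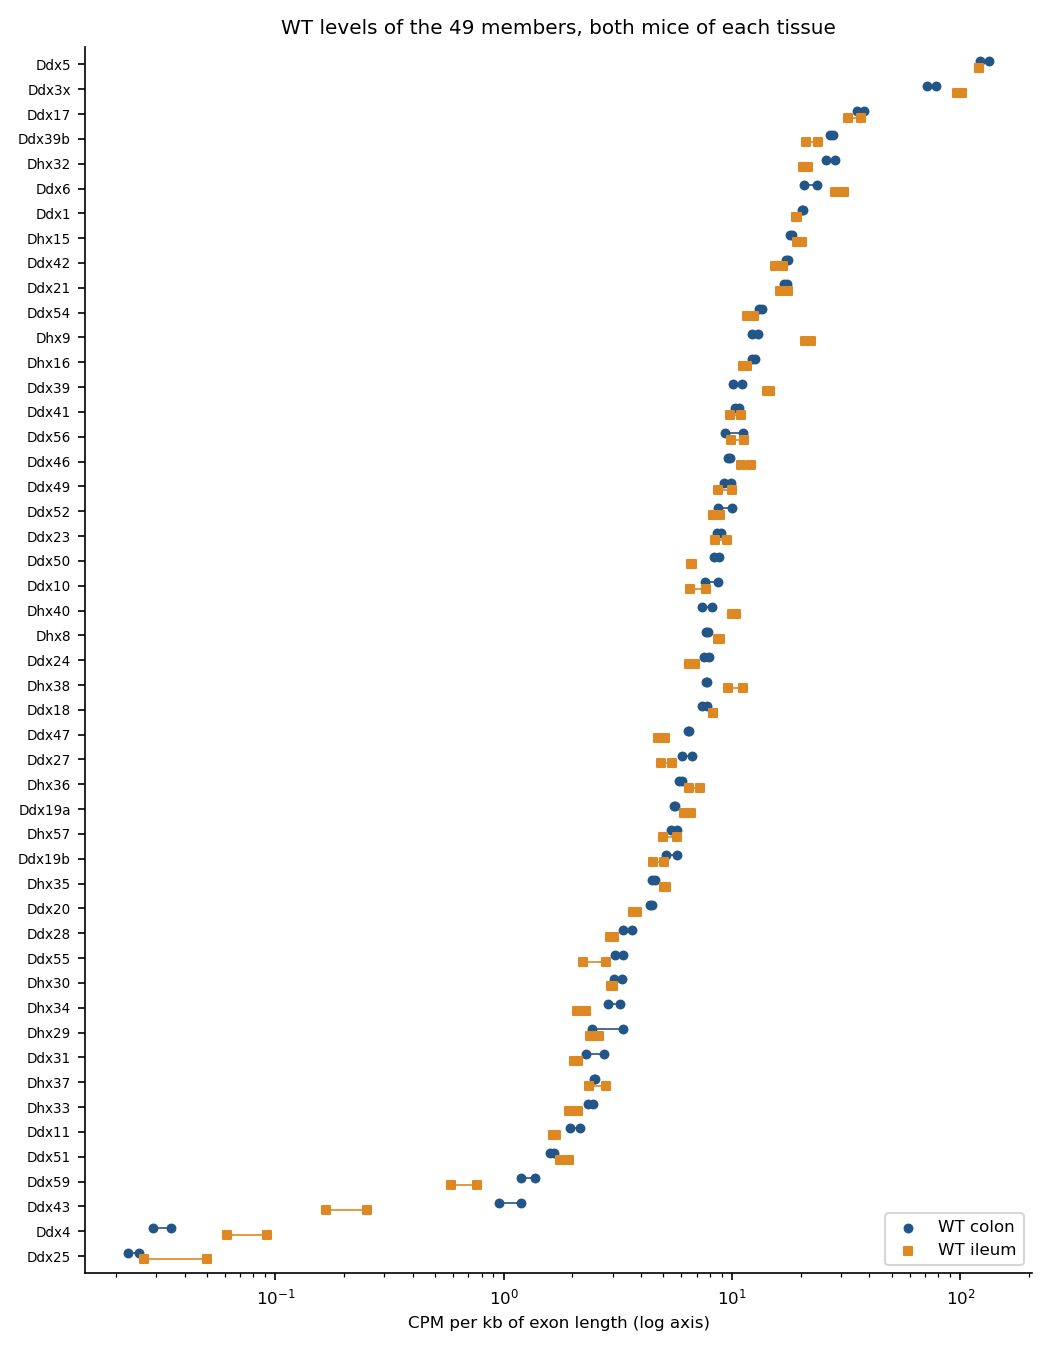
Level of each of the 49 members in the WT libraries, in CPM per kb of exon length on a log axis, with circles for the 2 colon mice and squares for the 2 ileum mice and members ordered by their colon mean. Ddx5, Ddx3x and Ddx17 lead in both tissues, and Ddx43, Ddx4 and Ddx25 stand at the bottom, with Ddx43 at 1.07 CPM per kb in WT colon and 0.209 in WT ileum.

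The 3 members known from germ cells were at the other end. Ddx4, the vasa gene of germ cells, had 0 to 4 counts per library, and Ddx25, known from the testis, had 0 to 7. Both were too low to be tested in either tissue. Ddx43, a gene otherwise known from testis and tumours, had 48 to 50 counts in the WT colon libraries, 15 and 40 in DDX5KO colon, 8 in each WT ileum library, and 1 and 3 in DDX5KO ileum, and it was tested between genotypes in the colon only. The tests between genotypes therefore covered 47 of the 49 members in the colon, among 15362 genes, and 46 in the ileum, among 14068 genes.

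The deleted gene came first. In the colon, Ddx5 RNA was 852 and 785 CPM in WT replicates 1 and 2 and 404 and 390 in DDX5KO replicates 1 and 2, scaled within the colon. Both DDX5KO mice were below both WT mice. The log2 fold change was -1.04 (SE 0.09, unadjusted p = 8.95e-05, adjusted p = 0.0866 over all genes, edgeR quasi-likelihood test), so that 0.486 times the WT level remained. In the ileum, Ddx5 was 633 and 635 CPM in the WT mice and 308 and 296 in the DDX5KO mice, again without overlap. The log2 fold change there was -1.07 (SE 0.18, unadjusted p = 8.24e-05, adjusted p = 0.0270 by edgeR, adjusted p = 0.305 without the replicate number as a block, and adjusted p = 0.0562 without the 3 repeat-like genes). Over the alternatives that kept every library, the adjusted p of Ddx5 ran from 2.58e-11 (DESeq2) to 0.0866 (edgeR) in the colon. For the ileum this range was 8.47e-06 (DESeq2) to 0.305 (edgeR). Fits that left out 1 library, and so kept 1 in a group, went below and above the colon range and above the ileum range. Ddx5 (ENSMUSG00000020719.14) lies at chr11:106780355-106789185 on the minus strand, and its counts cover all of its exons. The exons removed by the deletion are not given in the sources used here, so the remaining counts can come from undeleted exons as well as from cells that kept the gene. Their source was not tested. By qRT-PCR and Western blot, the study reports an efficient loss of Ddx5 RNA and DDX5 protein in IECs of both small intestine and colon. Of the 50-base words in its exons, 14.6% also occurred in other annotated genes.

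Ddx17 moved the other way. In the colon it was 297 and 321 CPM in the WT mice and 403 and 414 in the DDX5KO mice, with no overlap. The log2 fold change was 0.40 (SE 0.08, unadjusted p = 0.00529, adjusted p = 0.271 by edgeR), which did not reach the fold change of 0.5 on the log2 scale that the study required together with an unadjusted p under 0.05. In the ileum, Ddx17 was 224 and 255 CPM in the WT mice and 391 and 379 in the DDX5KO mice. Both DDX5KO mice were above both WT mice, and the log2 fold change of 0.69 (SE 0.16, unadjusted p = 0.00149, adjusted p = 0.103 by edgeR) passed the study's criterion but not an adjusted p of 0.05. Without WT ileum replicate 1 it was 0.59 with an unadjusted p of 0.0871 by edgeR and no longer passed. Over the other alternatives the adjusted p ran up to 0.9995 and the unadjusted p from 2.01e-04 to 0.0356. Ddx17 (ENSMUSG00000055065.7, chr15:79527736-79546741, minus strand) had no 50-base word in common with another gene.

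**Figure D2:**
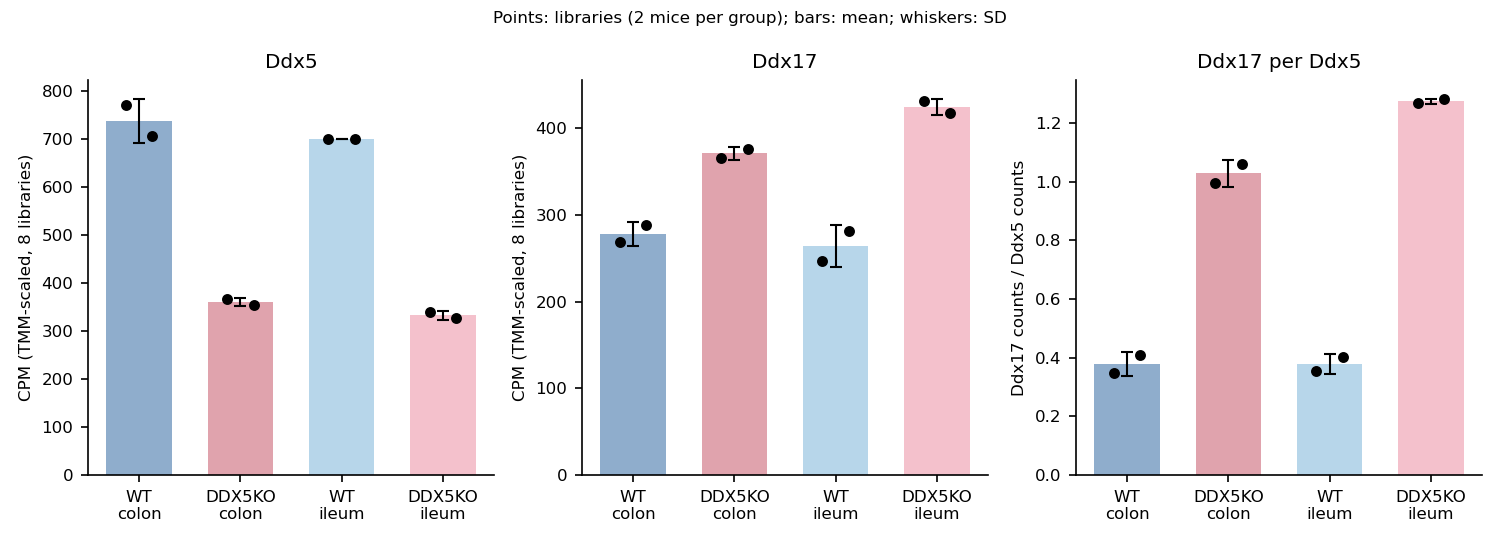
Ddx5 and Ddx17 in CPM, scaled over all 8 libraries, and the number of Ddx17 counts per Ddx5 count, with points for libraries, bars for group means and whiskers for the SD of 2 mice. Ddx5 is lower and Ddx17 higher in every DDX5KO library than in every WT library of the same tissue, and the ratio goes from 0.349 to 0.408 in WT libraries to 0.997 to 1.28 in DDX5KO libraries. Neither the CPM nor the ratio is divided by exon length.

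Within a library, the ratio of Ddx17 to Ddx5 counts does not depend on how the libraries were scaled. It was 0.349 and 0.408 in WT colon, 0.353 and 0.402 in WT ileum, 0.997 and 1.06 in DDX5KO colon, and 1.27 and 1.28 in DDX5KO ileum. Ddx17 has the longer exons, with 7643 bases beside 5775 for Ddx5. Per kb of exon length the ratio was 0.263 and 0.309 in WT colon and 0.267 and 0.304 in WT ileum. It was 0.753 and 0.802 in DDX5KO colon and 0.959 and 0.967 in DDX5KO ileum, so per kb Ddx17 stayed below Ddx5 in every library. The WT ratios of the 2 tissues overlapped, whereas the DDX5KO ratios were higher in the ileum than in the colon in both mice. The change in the ratio includes the deletion itself, since Ddx5 is its denominator. Scaled over all 8 libraries, group means of Ddx5 fell by 378 CPM in the colon and those of Ddx17 were 92.5 CPM higher, which is 24.5% of the Ddx5 difference. In the ileum the Ddx5 mean fell by 367 CPM and the Ddx17 mean was 160.2 CPM higher, or 43.6% of it. These CPM and the sums that follow were not divided by exon length. The sum of the pair was 1040 and 994 CPM in WT colon, 733 and 731 in DDX5KO colon, 948 and 982 in WT ileum, and 771 and 744 in DDX5KO ileum, and was lower in every DDX5KO library than in every WT library. The difference between the tissues in the genotype effect on Ddx17 was 0.27 on the log2 scale (SE 0.17, unadjusted p = 0.147, adjusted p = 1.00 by edgeR), and that on Ddx5 was -0.04 (SE 0.17, unadjusted p = 0.828), so a difference between colon and ileum was not detected for either.

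Beyond the pair, no member passed the study's criterion in either tissue. In the colon, 1 of 47 members (2.13%) was called lower, where 3.67% of all genes tested were, and 0 members were called higher, where 3.04% were. In the ileum, 1 of 46 members (2.17%) was called lower, beside 3.48% of all genes, and 1 (2.17%) higher, beside 3.87%. At an adjusted p under 0.05 from edgeR, 0 members and 0% of all genes were called in the colon, and 1 member, Ddx5, and 0.697% of all genes in the ileum, where the call of Ddx5 was lost without the repeat-like genes, without the block and in each fit that left out 1 library. With the same fold change and p, DESeq2 called the same 1 and 2 members as edgeR. None of the shares at the study's criterion was above that of all genes.

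The spread of the family was also narrower than that of all genes, which were not matched to the members in count level. The median log2 fold change was 0.005 over the 47 colon members and -0.0004 over all genes, and the median size of the change, without its sign, was 0.11 for members and 0.16 for all genes. In the ileum the median was -0.003 over the 46 members and -0.005 over all genes, with median sizes of 0.12 and 0.17. In the colon, 23 members had values below 0 and 24 above, and in the ileum 23 and 23. The 2 mice of each genotype did not overlap for 23 of 47 colon members (48.9%) and for 17 of 46 ileum members (37.0%), beside 44.5% and 39.5% of all genes. An unadjusted p under 0.05 was reached by 6 colon members (12.8%, beside 12% of all genes) and 4 ileum members (8.7%, beside 12.3%). With the deleted gene Ddx5 counted, the colon shares were slightly above and the ileum shares below those of all genes. Without Ddx5 and Ddx17, 4 of 45 colon members and 2 of 44 ileum members had an unadjusted p under 0.05. The genotypes then did not overlap for 21 of the 45 and 15 of the 44.

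**Figure D3:**
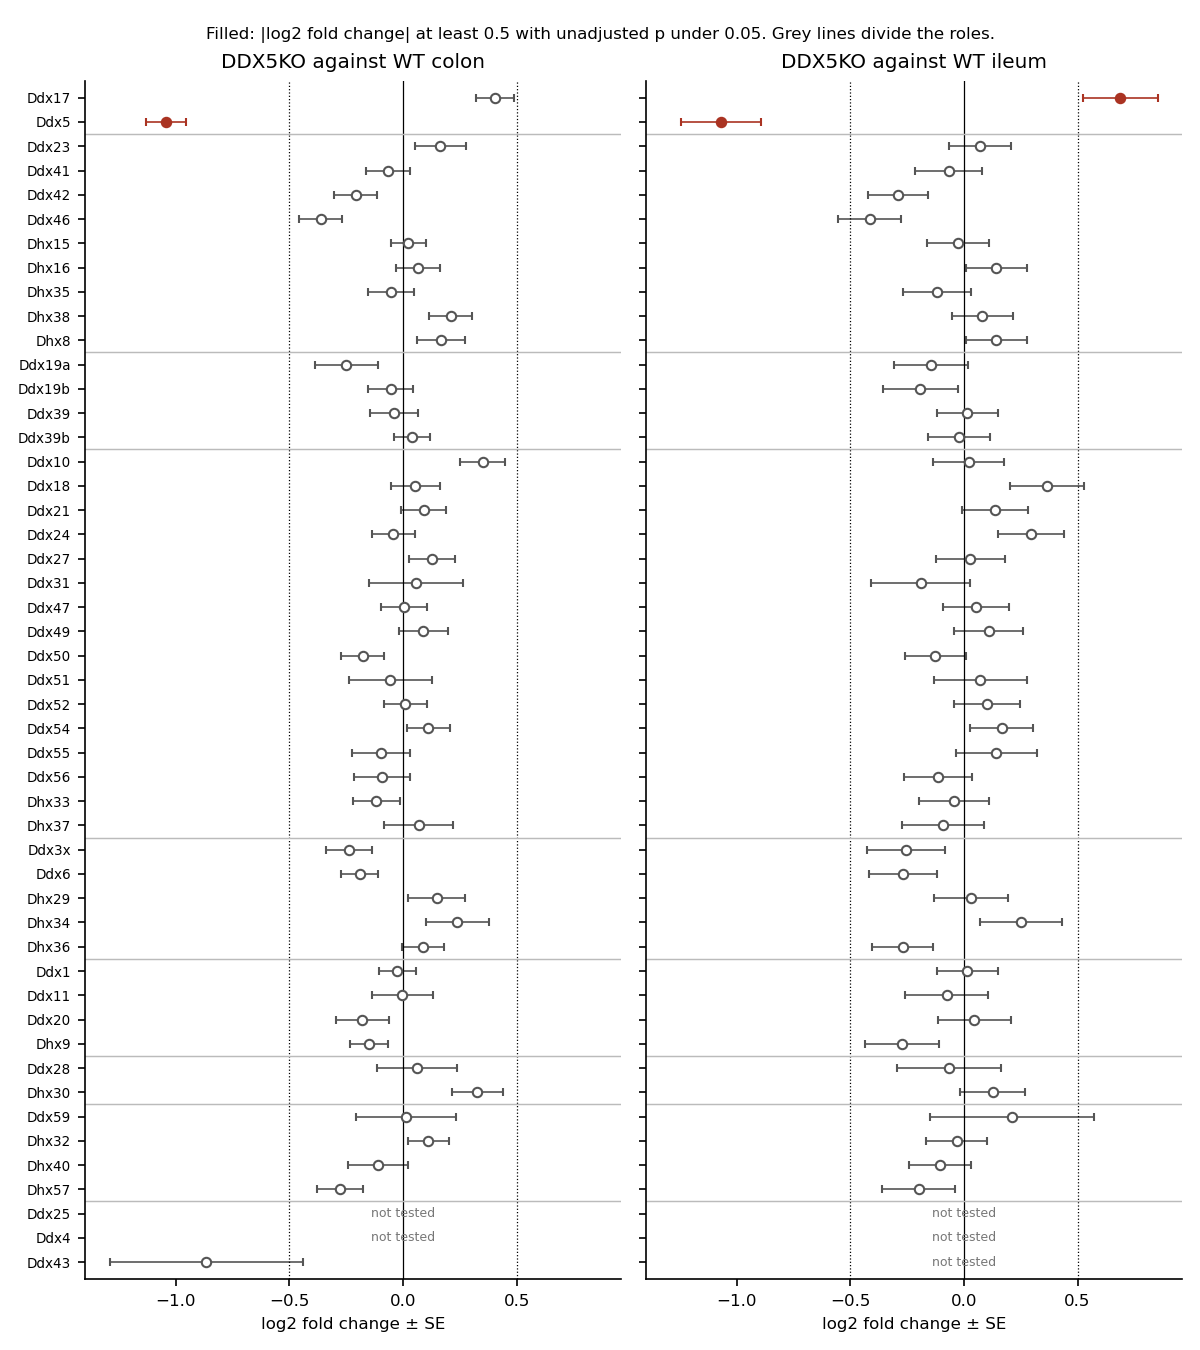
Log2 fold change of DDX5KO against WT for every member in the colon and the ileum, ordered by role, with whiskers for the SE and dotted lines at the fold change of 0.5 that the study required. The filled points are Ddx5 in the colon, at -1.04, and Ddx5 and Ddx17 in the ileum, at -1.07 and 0.69, and the other members tested lie between the dotted lines except Ddx43, at -0.86 in the colon.

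Among the 9 helicases of pre-mRNA splicing, Ddx46 had the smallest p in both tissues. It was named after its values were seen, as were the other members under the study's fold change described here. Ddx46, which joins the U2 particle to the branch site early in spliceosome assembly, was 77.5 and 79.2 CPM in WT colon and 58.8 and 63.2 in DDX5KO colon. In the ileum it was 72.2 and 80.5 CPM in the WT mice and 50.2 and 65.3 in the DDX5KO mice. The genotypes did not overlap in either tissue. The log2 fold change was -0.36 in the colon (SE 0.09, unadjusted p = 0.0124, adjusted p = 0.319 by edgeR) and -0.41 in the ileum (SE 0.14, unadjusted p = 0.0122, adjusted p = 0.252 by edgeR). Without DDX5KO ileum replicate 2 the ileum value was -0.60 and passed the study's criterion, and without DDX5KO ileum replicate 1 it was -0.22.

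Ddx42, another helicase that works with the U2 particle, was 80.5 and 82.5 CPM in WT colon and 72.6 and 68.7 in DDX5KO colon, and 64.1 and 59.3 CPM in WT ileum and 50.8 and 50.04 in DDX5KO ileum. Its groups did not overlap in either tissue, with log2 fold changes of -0.21 (unadjusted p = 0.0781) and -0.29 (unadjusted p = 0.0531, edgeR), neither past the threshold. Dhx38 and Dhx8, which act at later steps of splicing, had log2 fold changes on the other side of 0, at 0.21 and 0.17 in the colon and 0.08 and 0.14 in the ileum, and were not called. The summed level of the 9 splicing members was 532 to 535 CPM in WT colon and 519 to 546 in DDX5KO colon, and 569 to 576 and 533 to 561 in the ileum, so the genotypes overlapped in the colon and not in the ileum.

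Ribosome biogenesis was the largest role, with 16 members, and none passed the study's criterion. Ddx10, a helicase of the small ribosomal subunit, was 29.9 and 26.4 CPM in WT colon and 39.8 and 32.3 in DDX5KO colon, a log2 fold change of 0.35 (SE 0.10, unadjusted p = 0.0180, adjusted p = 0.337 by edgeR). It was 0.20 without DDX5KO colon replicate 1 (unadjusted p = 0.104, edgeR) and 0.50 without DDX5KO colon replicate 2. In the ileum its groups overlapped and the value was 0.02 (unadjusted p = 0.898). Ddx18, which acts in pre-rRNA processing, was 18.6 and 18.5 CPM in WT ileum and 20.8 and 27.5 in DDX5KO ileum, a log2 fold change of 0.37 (unadjusted p = 0.0461, adjusted p = 0.394 by edgeR) that came to 0.17 without DDX5KO ileum replicate 2. Of the 50-base words of Ddx18, 55.9% occurred in other annotated genes, and how far this affected its counts was not tested. The median log2 fold change of the 16 was 0.03 for the colon and 0.06 for the ileum.

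The helicases of export, translation and turnover gave no call. The 4 export members had median log2 fold changes of -0.05 in the colon and -0.08 in the ileum. Ddx3x was 454 and 419 CPM in WT colon and 353 and 388 in DDX5KO colon, and 462 and 488 in WT ileum and 394 and 403 in DDX5KO ileum. It was lower in both DDX5KO mice of each tissue, with log2 fold changes of -0.24 (unadjusted p = 0.0685) and -0.25 (unadjusted p = 0.167, edgeR), neither past the threshold. Ddx6 overlapped between genotypes in both tissues, at -0.19 and -0.27. Among the mitochondrial members, Dhx30, a factor of mitochondrial ribosome assembly, was 35.7 and 39.0 CPM in WT colon and 49.1 and 44.7 in DDX5KO colon, a log2 fold change of 0.33 (unadjusted p = 0.0339, adjusted p = 0.383 by edgeR) and 0.13 in the ileum (unadjusted p = 0.395). Dhx57, with a less studied role, was at -0.28 in the colon (unadjusted p = 0.0406, adjusted p = 0.403) and -0.20 in the ileum (unadjusted p = 0.243, edgeR).

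RNA helicases outside the Ddx and Dhx symbols were also examined, from a list of 17 that includes the eIF4A family of translation initiation, Upf1 of nonsense-mediated decay and Snrnp200 of the spliceosome. Of these, 16 were tested in each tissue and 0 passed the study's criterion in either. Of all genes tested, 3.67% were called lower and 3.04% higher in the colon, and 3.48% and 3.87% in the ileum. With shares this small, 0 of 16 does not set these helicases apart. Eif4a1, Eif4a2 and Eif4a3 had log2 fold changes of -0.10, -0.08 and -0.07 in the colon and 0.01, -0.28 and 0.10 in the ileum, with unadjusted p between 0.0790 and 0.942 (edgeR). An unadjusted p under 0.05 was reached by 1 of the 16 in each tissue, beside 12% (colon) and 12.3% (ileum) of all genes tested. These were Supv3l1, a mitochondrial RNA helicase, in the colon (0.27, unadjusted p = 0.0491) and Mov10 in the ileum (0.31, unadjusted p = 0.0392, edgeR), both named after their values were seen. Mov10 was 53.1 and 31.2 CPM in WT ileum and 66.5 and 38.5 in DDX5KO ileum, so its genotypes overlapped and its p rests on the replicate block. The median of the 16 was 0.03 in the colon and 0.04 in the ileum.

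More members passed an adjusted p of 0.05 between the tissues than between the genotypes, and so did more of all genes. The 2 kinds of fit differed in libraries and block, and an adjusted p depends on all genes tested with it. The test between tissues ran over all 8 libraries and 16178 genes, 47 of them members. A member was called at an adjusted p under 0.05. In the WT mice 5 members (10.6%) were higher in the ileum and 6 (12.8%) lower, where 17.4% of all genes were higher and 16.8% lower. The median log2 ratio of ileum to colon was -0.09 over the members and -0.02 over all genes, and its median size without sign was 0.20 for members and 0.41 for all genes. Here too the genes were not matched in count level. Ddx5 and Ddx17 were not among the 11, each with a log2 ratio of -0.08 (adjusted p = 0.676 and 0.673, edgeR). The 11 calls rested on both mice of each WT group. Without WT ileum replicate 1 the count was 0, and without any other WT library no member but Ddx43 was called, whereas leaving out a DDX5KO library gave 11 or 12. Each of these fits left 1 library in a group, and the share of all genes they called was not counted. In the fit of all 8 libraries, Ddx43 passed the filter through its colon counts alone, and without it 10 members were called, 5 in each direction.

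The 5 members higher in the ileum had different roles. Dhx9, which unwinds double-stranded RNA in the nucleus, was 117 and 125 CPM in WT colon and 200.045 and 214 in WT ileum, scaled over all 8 libraries, a log2 ratio of 0.77 (SE 0.20, adjusted p = 0.0171 by edgeR). The groups were well apart. In the DDX5KO mice it was 101 and 119 CPM in the colon and 136 and 215 in the ileum, so DDX5KO ileum replicate 1 lay far below the other 3 ileum libraries. The DDX5KO log2 ratio of 0.67 (adjusted p = 0.0312, edgeR) was 0.95 without that library and 0.32, no longer called, without DDX5KO ileum replicate 2. The sum of the crypt proliferation markers was also lowest among the ileum libraries in DDX5KO ileum replicate 1, at 733 CPM beside 936 to 964 in the others. Mki67, at 235 CPM beside 364 to 368, Top2a, at 198 beside 261 to 279, Cdk1 and Ccnb1 were lowest there. Pcna, Mcm2, Mcm5 and Mcm6 were not. The part of these markers in the level of Dhx9 was not tested. Ddx39, a relative of Ddx39b in mRNA export, was 52.3 and 56.9 CPM in WT colon and 73.4 and 75.7 in WT ileum, and 55.1 and 52.0 and then 78.5 and 71.9 in DDX5KO colon and ileum. All 4 ileum libraries were above all 4 colon libraries, with log2 ratios of 0.45 (SE 0.10, adjusted p = 0.0107) in WT and 0.49 (SE 0.10, adjusted p = 0.00714, edgeR) in DDX5KO. In the annotation, 17.4% of the exon bases of Ddx39 lie opposite Adgre5 on the other strand, and how the counting used strand is not given in the sources used here.

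The other 3 were smaller. Ddx3x was 411 and 377 CPM in WT colon and 511 and 538 in WT ileum, a log2 ratio of 0.41 (SE 0.12, adjusted p = 0.0312). Dhx38, the DEAH helicase of the second splicing step shown above, was 38.1 and 38.7 CPM in WT colon and 55.5 and 47.7 in WT ileum, a log2 ratio of 0.43 (SE 0.13, adjusted p = 0.0303). Dhx40 was 34.6 and 31.3 CPM in WT colon and 44.2 and 42.1 in WT ileum, at 0.39 (SE 0.12, adjusted p = 0.0397, edgeR). For none of the 3 did the WT tissues overlap. Ddx6 was 166 and 189 CPM in WT colon and 226 and 248 in WT ileum, with a log2 ratio of 0.42 that was not called (adjusted p = 0.102) but was with the mouse as a block (adjusted p = 0.0186, edgeR). Over its alternatives the adjusted p of Ddx6 ran from 0.0111 to 0.408.

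**Figure D4:**
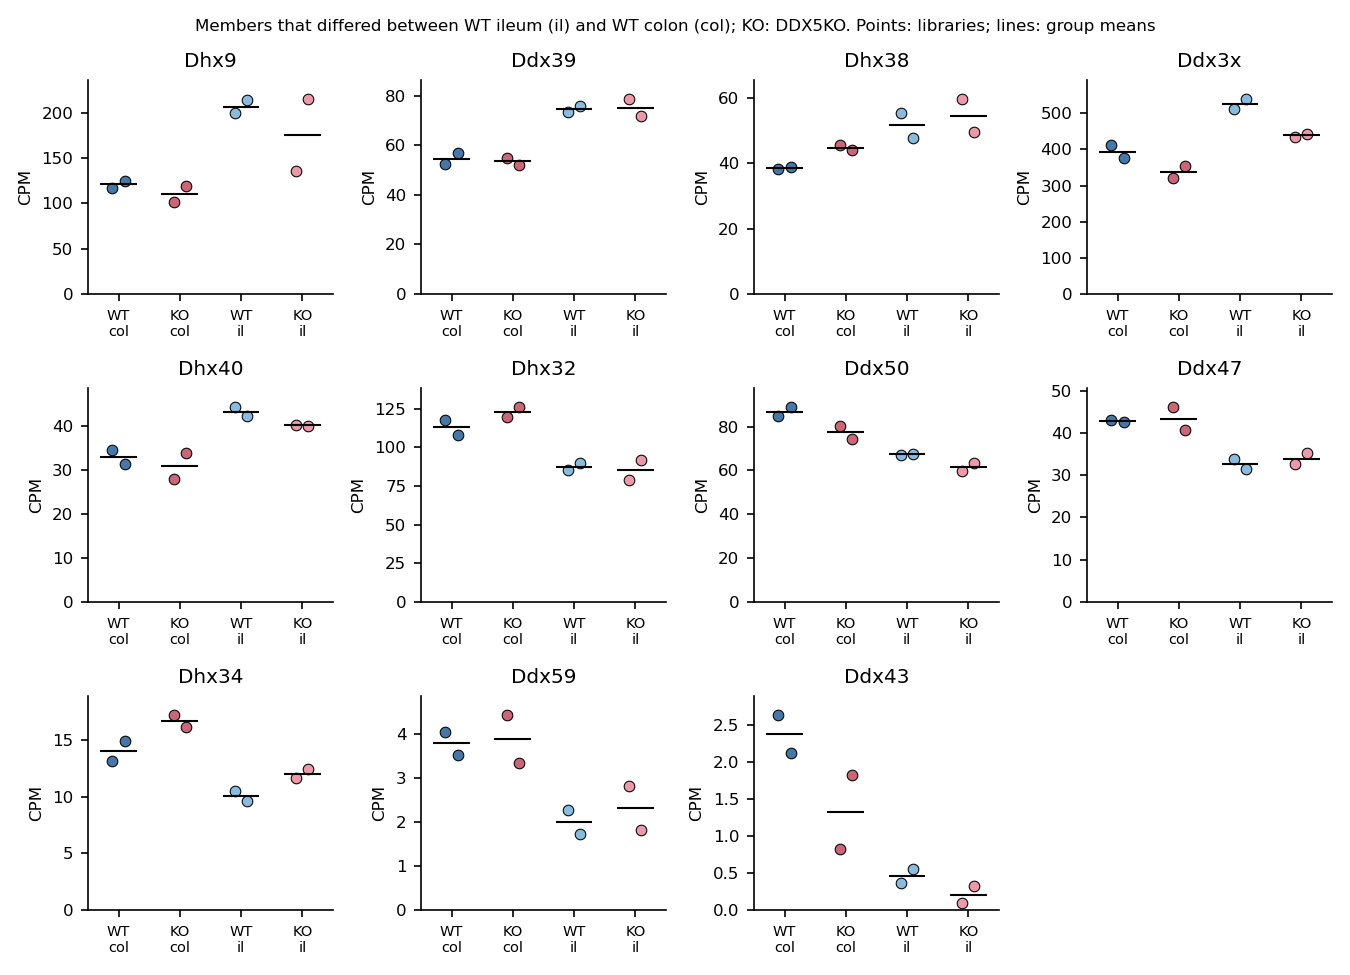
The 11 members called between WT ileum and WT colon, in CPM scaled over all 8 libraries, with a point for each library and a line for each group mean. For all 11 the 2 WT ileum libraries lie on one side of the 2 WT colon libraries, and Dhx9 shows the low DDX5KO ileum library, at 136 CPM beside 215 in the other.

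Of the 6 members lower in the ileum, Ddx43 entered the test only through its colon counts, since its ileum counts were under the filter, and its values are given as a description with no test. It was 2.63 and 2.11 CPM in WT colon and 0.369 and 0.555 in WT ileum, and 0.828 and 1.82 against 0.0937 and 0.321 in the DDX5KO mice, with fitted log2 ratios of -2.38 and -2.70 that rest on 1 to 8 ileum counts per library. In the annotation, 15.9% of its exon bases lie opposite 4930542C12Rik on the other strand. Ddx59, known from a disorder of cilia, was 4.04 and 3.52 CPM in WT colon and 2.26 and 1.73 in WT ileum, at -0.90 (SE 0.29, adjusted p = 0.0417, edgeR). Its DDX5KO libraries, at 4.42 and 3.33 in the colon and 2.81 and 1.82 in the ileum, did not overlap either but the adjusted p was 0.0998.

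The other 4 lower members belonged to ribosome assembly, decay and less studied roles. Ddx47, which acts on the early small subunit, was 43.0 and 42.6 CPM in WT colon and 33.9 and 31.4 in WT ileum (log2 ratio -0.39, SE 0.11, adjusted p = 0.0278). Ddx50, a nucleolar relative of Ddx21, was 84.9 and 88.7 CPM in WT colon and 66.9 and 67.7 in WT ileum (-0.37, SE 0.10, adjusted p = 0.0201). Dhx34, a factor of nonsense-mediated decay, was 13.1 and 14.9 against 10.5 and 9.64 CPM (-0.47, SE 0.14, adjusted p = 0.0297, edgeR). The WT tissues did not overlap for any of these. Dhx32 was 118 and 108 CPM in WT colon and 85.2 and 90.0 in WT ileum (-0.37, SE 0.11, adjusted p = 0.0345), and 120 and 126 against 79.3 and 92.2 in the DDX5KO mice (-0.52, SE 0.11, adjusted p = 0.00794, edgeR), with all 4 colon libraries above all 4 ileum libraries.

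By role, 12 of the 16 ribosome biogenesis members had a WT log2 ratio below 0, with 2 of them called lower and none higher and a median of -0.17, beside 8303 of all 16178 genes below 0, 16.8% called lower and 17.4% higher. Of the 9 splicing members 6 were above 0, with 1 called higher and a median of 0.12. The roles were not tested against each other or against other genes. The summed level of the 16 ribosome biogenesis members was 593 and 596 CPM in WT colon and 545 and 515 in WT ileum, and that of the 5 translation and turnover members was 666 and 661 against 828 and 886. Most of the latter difference lay in Ddx3x, at group means of 394 and 525 CPM, and Ddx6, at 178 and 237, while Dhx34 was called lower and Dhx29 had a log2 ratio of -0.21. In the DDX5KO mice the ribosome biogenesis sums were 639 and 579 in the colon and 543 and 587 in the ileum and overlapped. The translation and turnover sums were 564 and 626 against 683 and 764 and did not.

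In the DDX5KO mice, 4 members (8.51%) were higher in the ileum and 8 (17%) lower, beside 18% and 17.3% of all genes. The 8 include Ddx43, which passed the filter through its colon counts alone and is no test. Of the 11 members called in WT, 9 were also called in DDX5KO, in the same direction, or 8 of 10 without Ddx43. The same overlap was not counted over all genes, so it is not read as a trait of the family. Dhx38 and Ddx59, called in WT alone, had DDX5KO log2 ratios of 0.29 and -0.72 with adjusted p of 0.114 and 0.0998 (edgeR). Without DDX5KO ileum replicate 1 these ratios were 0.14 and -1.09, and without DDX5KO ileum replicate 2 they were 0.43 and -0.43. Called in DDX5KO alone were Ddx10, Ddx27 and Ddx39b, all lower in the ileum. Ddx10 was 36.2 and 29.4 CPM in DDX5KO colon and 22.6 and 22.5 in DDX5KO ileum (log2 ratio -0.54, adjusted p = 0.0229), beside -0.19 in WT (adjusted p = 0.367). Ddx27, of the large ribosomal subunit, was at -0.41 (adjusted p = 0.0230) and Ddx39b at -0.36 (adjusted p = 0.0284, edgeR), beside -0.30 and -0.28 in WT. A call in one genotype and not in the other does not show that the genotypes differed. With the mouse as a block, Ddx47 was no longer called (adjusted p = 0.0507) and Ddx6 was (log2 ratio 0.33, adjusted p = 0.0443, edgeR). Leaving out any 1 library left 3 to 7 members called, and fitting the 4 DDX5KO libraries alone left 2, Ddx39 and Dhx32.

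**Figure D5:**
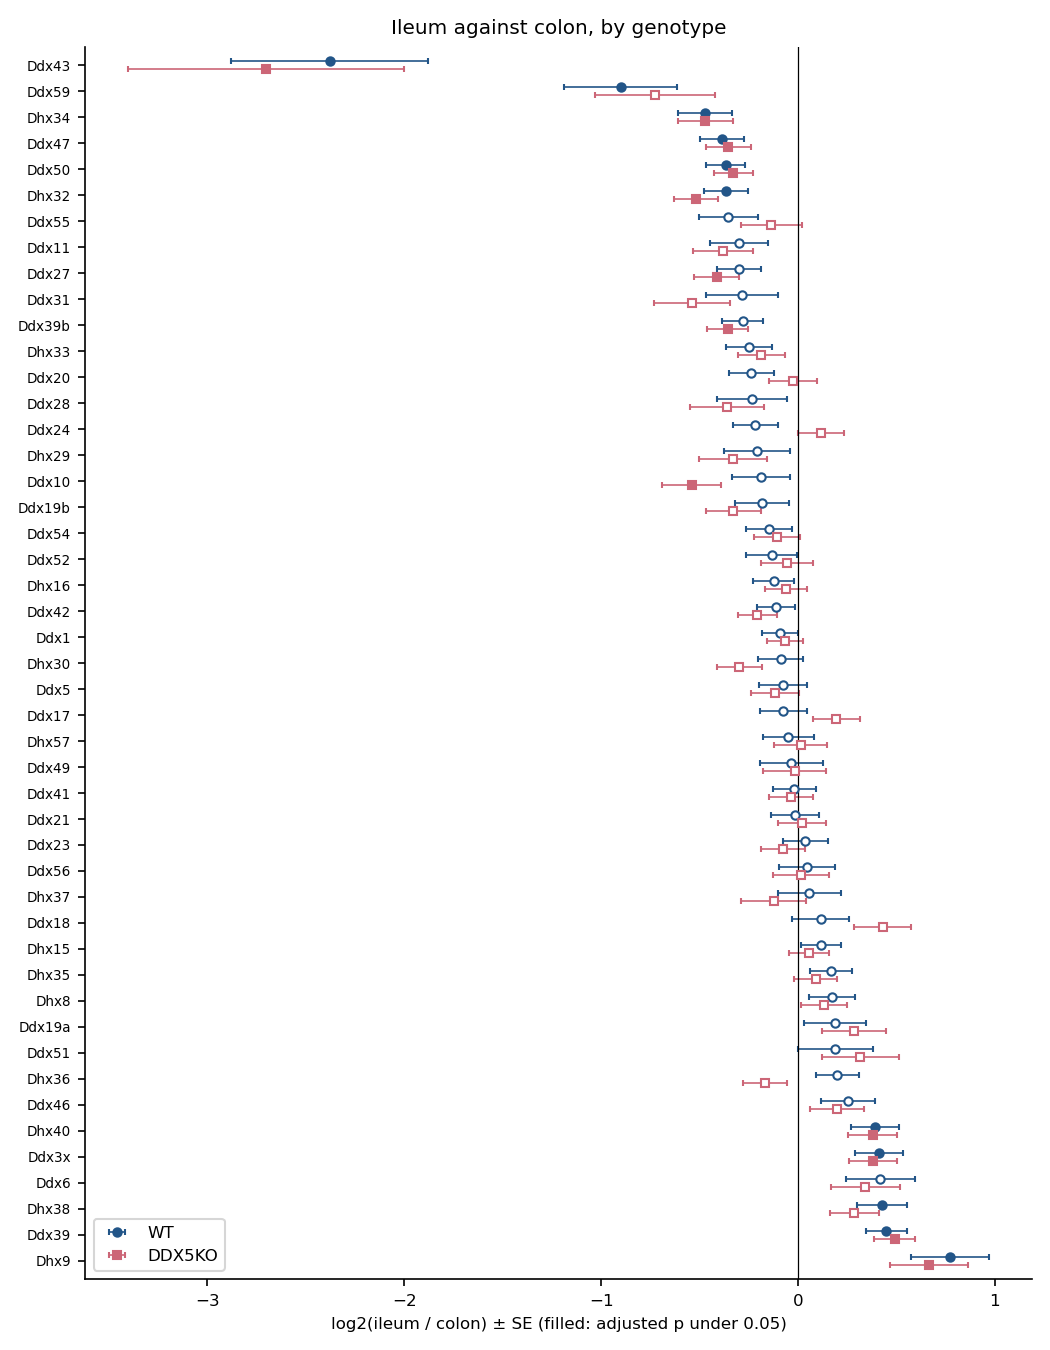
Log2 ratio of ileum to colon for the 47 members tested, in WT (circles) and DDX5KO mice (squares), with whiskers for the SE and filled symbols for an adjusted p under 0.05. The ratios of the 2 genotypes lie close to each other for most members, with Dhx9 at 0.77 and 0.67. Ddx43, at -2.38 and -2.70, passed the filter only through the colon, where it is high, and its filled symbols are no test.

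The difference itself was tested as the interaction of tissue and genotype. At an adjusted p under 0.05 it called 0 members in edgeR and 0 in DESeq2, and in edgeR 2 of the 16178 genes (0.0124%). An unadjusted p under 0.05 was reached by 1 member (2.13%), beside 4.67% of all genes. This was Dhx36, which unwinds G-quadruplexes, at 61.6 and 59.9 CPM in WT colon, 66.5 and 63.5 in DDX5KO colon, 65.9 and 73.7 in WT ileum and 54.3 and 61.5 in DDX5KO ileum. Its genotypes did not overlap in either tissue, with the DDX5KO libraries above WT in the colon and below WT in the ileum, and the interaction was -0.37 on the log2 scale (SE 0.16, unadjusted p = 0.0446, adjusted p = 1.00 by edgeR). Ddx24, of the large ribosomal subunit, followed with 0.33 (SE 0.17, unadjusted p = 0.0787) and Ddx10 with -0.35 (SE 0.21, unadjusted p = 0.128, edgeR). Leaving out 1 library gave 0.22 to 0.46 for Ddx24 and -0.49 to -0.20 for Ddx10, and no difference between the tissues in the genotype effect was shown for any member.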

How the data were processed

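RNAseq counts were deposited for 8 libraries, WT and DDX5KO IECs of colon and ileum with 2 mice each, at 11571061 to 22984283 counts per library. Per the labels RNA was ribodepleted and stranded. The authors aligned reads to mm10 with STAR 2.6.1a and counted them per gene with featureCounts, and the submitters' processing notes also name DESeq2 1.18.1. The deposited raw counts were used. The normalized values and the columns of the authors' comparisons, which hold fold changes and p-values, were not used.

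Genotypes were compared within a tissue by the quasi-likelihood test of edgeR 4.0.16 (R 4.3.3) with TMM scaling, filterByExpr at a minimum count of 10, and the replicate number as a block, since the study's methods fit a harvest term. A call needed a log2 fold change of 0.5 or more in either direction and an unadjusted p under 0.05, and Benjamini-Hochberg adjusted p are given beside it. Tissues and the interaction were tested over all 8 libraries with 1 mean per group, at an adjusted p under 0.05. These tests did not use that a mouse gave both tissues, and the mouse as a block was an alternative. SE is the log2 value over the root of F. An exact permutation test of 2 against 2 cannot give a p under 0.333. All model p-values are from edgeR unless DESeq2 is named. Same-numbered colon and ileum libraries of a genotype come from 1 mouse, by the study's own sample names, and their deviations from the group means correlated at 0.140 and 0.142. Same-numbered WT and DDX5KO libraries correlated at 0.00559 for the colon and at 0.240 for the ileum, and the labels do not say that their number marks a harvest.

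The members, the role and marker lists and the list of other helicases were chosen with earlier results of these data known. Genes were named by rule: Ddx5 and Ddx17, members called between genotypes, the 5 largest differences in each direction between WT tissues, the 5 highest levels per kb in each tissue, members under the filter, the 3 smallest interaction p, and Eif4a1, Eif4a2 and Eif4a3. Other genes described, among them Ddx46, Ddx42, Dhx8, Ddx18, Dhx30, Dhx57, Ddx27, Supv3l1 and Mov10, fall outside this rule and were chosen after their values were seen. Coding sequences and positions came from GENCODE vM21 on GRCm38, in which 48 of the 49 members had the deposited identifier version. Alternatives were DESeq2 1.42.0, RLE scaling, no filter, no repeat-like genes, other sample sets, the block, the call rule and leaving out each library. The scripts were tested on simulated data.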

Additional observations from a re-analysis of the deposited data

How the results depend on the processing

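With 2 mice a group, counts of calls moved with single libraries. Each fit that left out 1 library had no replicate block within a tissue, and where it left 1 sample in a group that sample was assumed to vary like the others. Leaving out 1 library gave 1 to 2 called members in the colon (2 without DDX5KO colon replicate 2, which added Ddx43), 1 to 4 in the ileum (1 without WT ileum replicate 1, without Ddx17, 3 without DDX5KO ileum replicate 1, with Ddx18, and 4 without DDX5KO ileum replicate 2, with Ddx46 and Dhx9), 0 to 12 between WT tissues and 3 to 7 between DDX5KO tissues. It gave log2 fold changes of Ddx5 from -1.11 to -0.99 in the colon and -1.10 to -1.03 in the ileum, and of Ddx17 from 0.35 to 0.45 and 0.59 to 0.78. With an adjusted p under 0.05 as the rule, the colon count was 0 (Ddx5 at -1.04) and the ileum count 1 (Ddx17 at 0.69 no longer called). Between tissues, DESeq2 called 7 members in WT and 6 in DDX5KO, no filter gave 3 and 7, and the 4 libraries of the genotype alone 13 and 2. The interaction count was 0 under every alternative run, and the interaction of Ddx5, at -0.04, ran from -0.10 to 0.0269 when 1 library was left out, above 0 without WT colon replicate 2 (0.0269) and without DDX5KO ileum replicate 2 (0.0209). The cause of these moves was not tested, and the share of all genes called when 1 library was left out was not counted. Without the replicate block the genotype counts stayed at 1 and 2. With the mouse as a block the tissue counts were 12 and 12, and among named members only the calls of Ddx6 and, in DDX5KO, Ddx47 changed.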
